A study of Homo sapiens with 9 samples.

Results

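The genes described here are 10 enzymes of fatty acid synthesis, desaturation and elongation, chosen by name for their enzymatic role, with earlier results of these data known. They are ACLY, ACACA, FASN, SCD, FADS1, FADS2, FADS3, ELOVL1, ELOVL5 and ELOVL6, and all 10 were among the 17492 genes with a row in the deposited expression table. RNA was sequenced from HCCLM3, a human hepatocellular carcinoma cell line described as highly metastatic and labelled wild type in all groups. The groups were cells given DMSO as the control, quercetin at 50 µM and quercetin at 100 µM, with 3 libraries in each. Quercetin is a plant flavonoid, and the series was set up to see what different concentrations of it do to these cells. The vehicle of the quercetin groups and the length of treatment are not stated in the labels or the file. One cell line was used, so the values describe HCCLM3 only, and nothing in the labels says whether the 3 libraries of a group came from separate cultures. The p-values below then measure the spread between these libraries, which may be technical.

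Fatty acid synthesis in the cytosol starts from citrate exported by mitochondria. ACLY (ATP citrate lyase) splits it into acetyl-CoA, ACACA (acetyl-CoA carboxylase) turns acetyl-CoA into malonyl-CoA, and FASN (fatty acid synthase) joins these units into palmitate. Elongases of the ELOVL family then lengthen the chain, and desaturases add double bonds: SCD (stearoyl-CoA desaturase) makes monounsaturated fatty acids such as oleate, and FADS2 and FADS1 act in turn on the route from dietary linoleic and alpha-linolenic acid to arachidonic and eicosapentaenoic acid. In liver many of these genes are transcribed under the control of the sterol regulatory element-binding proteins, and their raised expression is a known feature of hepatocellular carcinoma.

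Depth differed little between libraries, at 20061136 to 21599805 estimated counts. Some libraries stood apart from their own group. The chi-square per gene was 27.6 and 27.4 for control replicate 1 against the other 2 controls, which gave 3.56 against each other. It was 83.9 and 86.1 for 100 µM replicate 3 against its partners, which gave 5.04, and 4.24 to 4.75 within the 50 µM group, so no pair was a copy. For the 10 genes, where leaving out either of these libraries changed a call, the value without it is given. For the other named genes the omissions that lost a call are stated with the largest adjusted p over them. Calls gained by omissions were not followed for those genes. Levels per library are given as CPM, counts scaled to a common library size. Of the liver markers, HNF4A stood at 32.4 to 45.0 CPM in the controls, 21.1 to 25.2 at 50 µM and 24.1 to 37.8 at 100 µM. ALB was at 0.81 to 2.05 CPM in the controls, 6.14 to 10.6 at 50 µM and 7.02 to 16.3 at 100 µM, APOB at 8.01 to 9.20, 1.68 to 1.81 and 1.83 to 2.68 CPM, and APOA1 at most at 0.20 CPM. Of the 4 epithelial markers, the keratin KRT8 was at least 2645 CPM, while CDH1 stood at 3.91 to 9.93 CPM and EPCAM at most at 0.51. KRT18, the fourth, was at 1221 to 1434 CPM in the controls, 960 to 992 at 50 µM and 716 to 1152 at 100 µM. Adipocytes also make fatty acids, and of their 5 listed markers ADIPOQ, PLIN1, LEP and FABP4 did not exceed 0.33 CPM in any library. CIDEC, the fifth, carried that list, whose summed level was 23.0 to 26.0 CPM in the controls, 11.5 to 13.8 at 50 µM and at most 11.4 at 100 µM. Among the leukocyte markers CD68 stood at 137 to 199 CPM in the controls, 127 to 142 at 50 µM and 215 to 296 at 100 µM, while PTPRC did not exceed 1.06 CPM and CD3E did not exceed 0.05. Among 7 fibroblast markers LUM stood at 65.7 to 145 CPM and COL1A1 at most at 0.68. The 4 endothelial markers, mostly PECAM1, summed to 36.9 to 40.4 CPM in the controls, 20.0 to 22.4 at 50 µM and 21.6 to 26.2 at 100 µM, with VWF at most 0.93. The part of these marker differences in the results below was not tested.

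Of the 10 genes, 5 rose at 50 µM and the same 5 rose at 100 µM: ACACA, FASN, SCD, FADS1 and FADS2. None fell at either dose. A gene rose or fell where edgeR's quasi-likelihood test gave an adjusted p under 0.05, by the Benjamini-Hochberg method over 12832 genes. Of all those genes, 11.6% changed at 50 µM (5.28% rose and 6.31% fell) and 21.0% changed at 100 µM (10.7% rose and 10.3% fell). Both doses were compared with the same 3 controls, so the 2 sets of calls are not separate evidence. At an unadjusted edgeR p under 0.05, 6 of the 10 were higher at each dose, 1 was lower at 50 µM and 0 at 100 µM. The share of all genes at that unadjusted threshold was not counted. Neither DESeq2 nor limma on log2(TPM + 1) called any of the 10 lower at either dose. DESeq2 called 10.6% of all genes lower at 50 µM and 12.9% at 100 µM, and limma 5.51% and 12.6%. Both methods called those 5 genes higher at each dose, and DESeq2 called ELOVL5 higher as well. Over all genes DESeq2 called 9.41% higher at 50 µM and 13.4% at 100 µM, and limma 3.41% and 7.60%. The median log2 fold change of the 10 was 0.34 at 50 µM and 0.29 at 100 µM, against 0.00 at both doses for all genes tested. In bulk RNA, fewer cells of a kind and less RNA per cell cannot be told apart.

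By level, SCD and FADS2 came first in each group, with FADS2 overlapping ELOVL5 in the controls. On the TPM scale, which corrects for gene length, the controls had SCD at 402 ± 98.6 TPM (SD, n = 3), FADS2 at 275 ± 35.7, ELOVL5 at 261 ± 7.71, ACLY at 200 ± 17.0 and FADS1 at 192 ± 7.53. ELOVL1 followed at 131 ± 9.51 TPM and FASN at 77.0 ± 6.15, and the lowest were ACACA at 23.0 ± 1.39, FADS3 at 16.4 ± 1.14 and ELOVL6 at 15.8 ± 0.88. Library ranges overlapped between FADS2 and ELOVL5, between ACLY and FADS1, and between FADS3 and ELOVL6, so the order within those pairs is not fixed by these data. The sum over the 10 genes was 1592 ± 106 TPM in the controls, 2650 ± 119 at 50 µM and 2879 ± 54.7 at 100 µM. SCD and FADS2 made up 25.2% and 17.3% of that sum in the controls and 40.5% and 22.9% at 100 µM. The libraries were treated with a nuclease used to normalise abundant sequences, and its part in these levels and shares was not tested. At 50 µM no neighbours in the order overlapped; at 100 µM FADS1, ACLY and FASN each overlapped with the next, down to ELOVL1, as did FADS3 with ELOVL6.

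**Figure D1:**
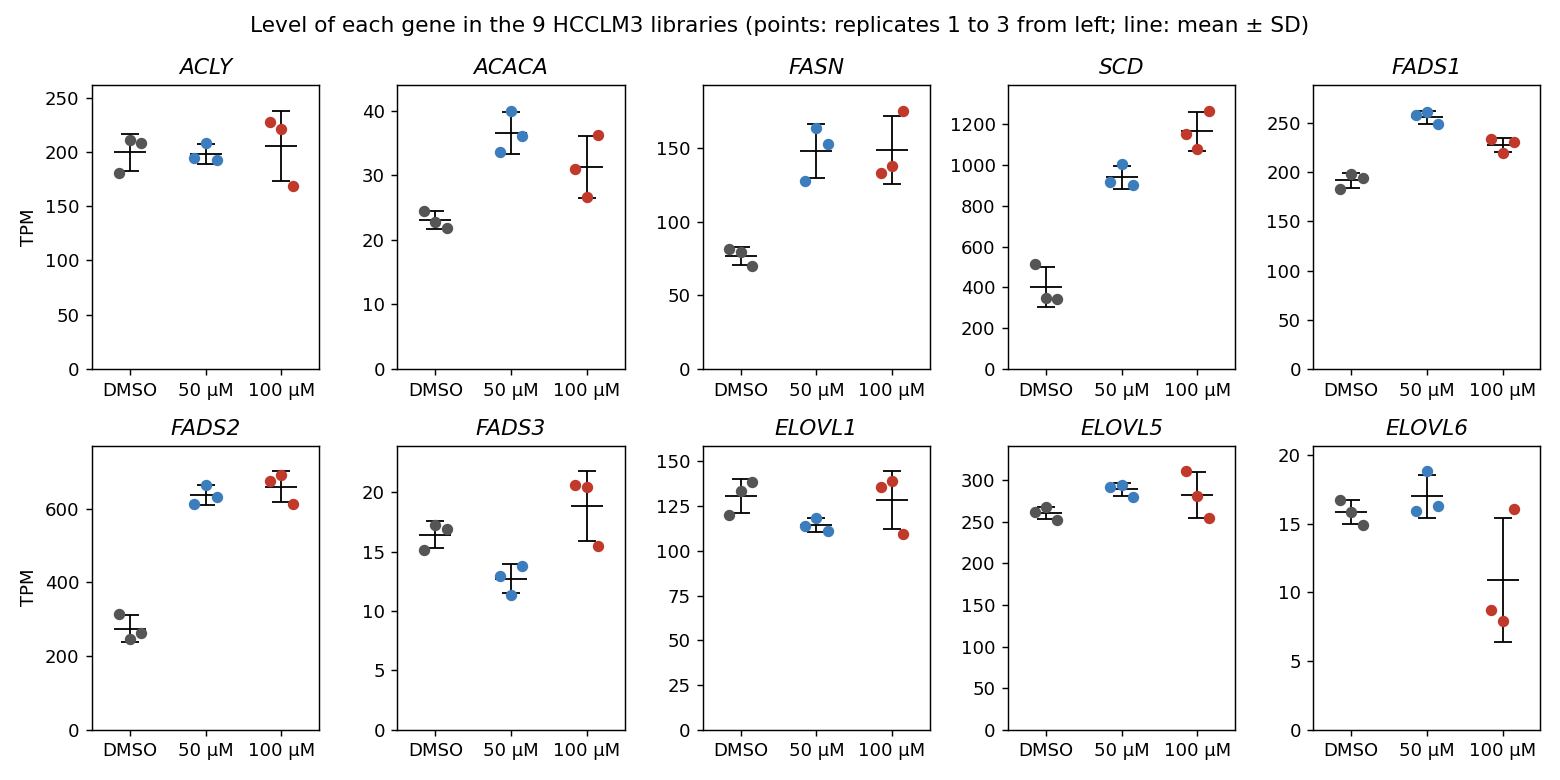
Level of each gene in TPM (y axis, linear, from 0) in the 9 libraries, grouped by treatment; points are replicates 1 to 3 from left and the lines give the mean ± SD. SCD and FADS2 lie apart from the controls at both doses, while ELOVL6 in 100 µM replicate 3 sits at 16.1 TPM beside 8.70 and 7.88 in the other 2 libraries.

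ACLY, at the entry of the pathway, did not pass the test at either dose. It read 351, 419 and 422 CPM in the controls, 403, 421 and 404 CPM at 50 µM, and 453, 452 and 373 CPM at 100 µM. The groups overlapped, with control replicate 1 and 100 µM replicate 3 the lowest of all. The fitted log2 fold change was 0.04 at 50 µM (95% interval -0.19 to 0.27) and 0.10 at 100 µM (-0.13 to 0.33). Its adjusted p by edgeR's quasi-likelihood test was 0.797 and 0.508, and the intervals leave room for a change of up to 0.33 on the log2 scale. The gene lies at chr17:41866908-41930542 on the minus strand (GRCh38, GENCODE v29).

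ACACA, which makes the malonyl-CoA that FASN uses, rose at both doses. Its controls read 107, 101.4 and 99.1 CPM, the 50 µM libraries 156, 180 and 170 CPM, and the 100 µM libraries 138, 123 and 180 CPM. Each treated library was above each control. The log2 fold change was 0.72 ± 0.13 (SE) at 50 µM, or 1.65-fold (edgeR adjusted p = 0.0144). The 100 µM value was 0.52 ± 0.13 (1.43-fold), for which edgeR's adjusted p was 0.0228. These calls were close to the threshold: at 50 µM the gene lost its call when control replicate 2 or 3, or a single 50 µM library, was omitted (edgeR adjusted p 0.0538 to 0.0776). At 100 µM it lost the call without control replicate 2 (0.0767) or control replicate 3 (0.0881), and over these omissions the log2 fold change was 0.49 to 0.78. Without 100 µM replicate 3 the 100 µM value was 0.35 (edgeR adjusted p = 0.00988), and the dose difference, -0.20 with all libraries (0.402), was -0.37 (0.00933). ACACA lies at chr17:37084988-37406818 on the minus strand.

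FASN rose at both doses, and the difference between the doses was 0.03 on the log2 scale (95% interval -0.30 to 0.36). It read 314, 313 and 281 CPM in the controls, 525, 654.5 and 638 CPM at 50 µM, and 525, 560 and 770 CPM at 100 µM. Treated and control libraries did not overlap, and 100 µM replicate 3 was the highest of all 9. Its log2 fold change was 1.00 ± 0.149 at 50 µM (2.00-fold, edgeR adjusted p = 0.00743) and 1.03 ± 0.149 at 100 µM (2.04-fold, edgeR adjusted p = 0.00233). Without control replicate 3 the 50 µM value was 0.95 with an edgeR adjusted p of 0.0527, and without 50 µM replicate 3 it was 0.96 with 0.0539. The 100 µM call held in each of the 9 omissions of 1 library, and without replicate 3 of that group the log2 fold change was 0.84. FASN lies at chr17:82078333-82098332 on the minus strand.

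SCD, the desaturase that turns stearate into oleate, was the most abundant of the 10 and had the highest fold change of them at 100 µM. Its controls read 1230, 845 and 848 CPM, the 50 µM libraries 2322, 2481 and 2322 CPM, and the 100 µM libraries 2804, 2697 and 3427 CPM. The 3 groups did not overlap, and control replicate 1 was above the other 2 controls. The log2 fold change was 1.29 ± 0.156 at 50 µM (2.44-fold, edgeR adjusted p = 0.0039) and 1.61 ± 0.157 at 100 µM (3.05-fold, edgeR adjusted p = 0.000437). Both calls held whichever library was left out. Without control replicate 1 the values were 1.49 and 1.82. Between the doses the difference was 0.33 on the log2 scale (95% interval -0.02 to 0.67), with an edgeR adjusted p of 0.253. SCD lies at chr10:100347124-100364834 on the plus strand.

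FADS2, the desaturase that opens the route to long polyunsaturated fatty acids, had the smallest adjusted p of the set. It read 439, 349 and 383 CPM in the controls, 910, 961 and 955 CPM at 50 µM, and 962, 1014 and 971 CPM at 100 µM. Control and treated libraries were far apart, and the lowest 100 µM library was just above the highest 50 µM library. FADS2 had a log2 fold change of 1.27 ± 0.0935 at 50 µM (2.42-fold, edgeR adjusted p = 0.000824) and 1.33 ± 0.0936 at 100 µM (2.52-fold, edgeR adjusted p = 9.07e-05). Both calls held in each of the 9 omissions. The dose difference was 0.06 (95% interval -0.14 to 0.27), so a further change of up to 0.27 at the higher dose lies within the error.

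FADS1, which acts after FADS2 on the same route, rose with a smaller log2 fold change. It read 353, 387 and 387 CPM in the controls, 526, 517 and 518 CPM at 50 µM, and 458, 445.5 and 503 CPM at 100 µM. All 100 µM libraries lay between the controls and the 50 µM libraries. The log2 fold change was 0.47 ± 0.0778 at 50 µM (1.39-fold, edgeR adjusted p = 0.0107) and 0.32 ± 0.0777 at 100 µM (1.25-fold, edgeR adjusted p = 0.0192). The 50 µM call did not survive the omission of control replicate 2 or 3, or of a single 50 µM library (edgeR adjusted p 0.0519 to 0.0658). At 100 µM it was lost without control replicate 2 (0.0549) or control replicate 3 (0.0562). The dose difference was -0.15 (95% interval -0.32 to 0.02) with an edgeR adjusted p of 0.295, and -0.20 with an adjusted p of 0.0462 without 100 µM replicate 3.

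FADS1 and FADS2 are neighbours. In GENCODE v29 on GRCh38, FADS1 (chr11:61799625-61829318, minus strand) lies wholly within the span of FADS2 (chr11:61792980-61867354, plus strand), and the 2 genes share 490 exonic bases, 4.79% of those of FADS1 and 4.44% of those of FADS2. The labels and the file do not say whether counting used strand, and without strand the reads of the shared stretch cannot be told apart. The deposited table, which holds the counts, lists other spans, FADS1 at 61799627-61820899 and FADS2 at 61816203-61867957. These overlap only in part, and the exonic bases shared under those gene models were not counted. In GENCODE v29 FEN1 shares 4265 bases of span with FADS2, and whether it does so in those models was not checked. The pseudogenes FADS2P1 and SCDP1 are near copies by name. The counts of FADS2 and SCD are uncertain to the extent that reads were shared with these pseudogenes.

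To set their relative change against the replicate spread, the ratio of FADS2 to FADS1 was taken within each library on the TPM scale. It was 1.71, 1.24 and 1.36 in the controls, 2.37, 2.55 and 2.55 at 50 µM, and 2.90, 3.14 and 2.66 at 100 µM. No 2 groups overlapped. The mean log2 ratio was 0.80 higher at 50 µM than in the controls and 1.02 higher at 100 µM, and 0.22 higher at 100 µM than at 50 µM. Each of these 3 differences gave p = 0.1 in a two-sided exact permutation test, the smallest p that 3 libraries against 3 can give, and 0.18 after Benjamini-Hochberg adjustment over the 9 ratio comparisons. The ratio of SCD to FASN was 6.34, 4.38 and 4.89 in the controls, 7.16, 6.14 and 5.90 at 50 µM, and 8.64, 7.80 and 7.21 at 100 µM. The 100 µM libraries were above all others, by 0.61 in mean log2 ratio over the controls and 0.30 over 50 µM (exact permutation p = 0.1 for each, 0.18 adjusted). The 50 µM libraries overlapped with the controls (difference 0.31, exact permutation p = 0.3), and that difference was 0.46 without control replicate 1 and 0.20 without control replicate 2.

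**Figure D2:**
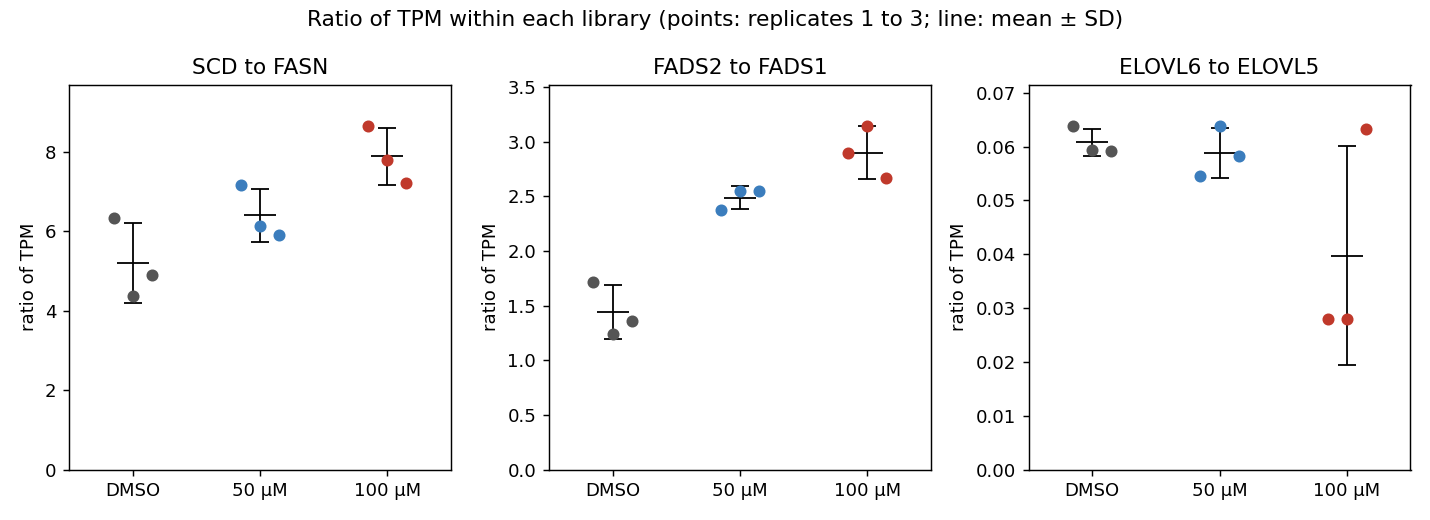
Ratio of TPM between 2 genes within each library (y axis, linear, from 0) by treatment; points are replicates 1 to 3 and lines the mean ± SD. The ratio of FADS2 to FADS1 runs from 1.24 to 1.71 in the controls and from 2.37 to 3.14 in the treated libraries, and ELOVL6 to ELOVL5 is 0.0280 in 2 of the 100 µM libraries.

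Reference sequence around a RefSeq start site of each of the 3 desaturase genes that rose is printed here as a description. SCD and FADS2 had the larger log2 fold changes and FADS1 the smaller, and any part of these sequences in that was not tested. The windows run from 250 bases before to 50 bases after the start site and come from RefSeq on GRCh38.p14, where 9 of the 10 genes matched 13 windows and FASN matched none. Capitals mark a CCAAT box (CCAAT or ATTGG) or a GC box (GGGCGG or CCGCCC). SCD is at chr10:100346983-100347282 on the plus strand, FADS2 (its second window) at chr11:61816154-61816453 on the plus strand, and FADS1 at chr11:61816954-61817253 on the minus strand.
SCD: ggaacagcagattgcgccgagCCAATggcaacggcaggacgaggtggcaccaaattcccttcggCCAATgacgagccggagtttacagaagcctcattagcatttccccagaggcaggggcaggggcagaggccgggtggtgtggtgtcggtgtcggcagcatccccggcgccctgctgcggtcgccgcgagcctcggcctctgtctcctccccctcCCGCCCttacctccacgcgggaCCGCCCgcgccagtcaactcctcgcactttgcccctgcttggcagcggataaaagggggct
FADS2: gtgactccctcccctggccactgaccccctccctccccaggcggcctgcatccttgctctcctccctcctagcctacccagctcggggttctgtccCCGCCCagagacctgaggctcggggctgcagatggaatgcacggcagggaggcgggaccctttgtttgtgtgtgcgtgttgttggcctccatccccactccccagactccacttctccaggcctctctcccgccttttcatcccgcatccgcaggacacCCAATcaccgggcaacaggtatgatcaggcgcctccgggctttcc
FADS1: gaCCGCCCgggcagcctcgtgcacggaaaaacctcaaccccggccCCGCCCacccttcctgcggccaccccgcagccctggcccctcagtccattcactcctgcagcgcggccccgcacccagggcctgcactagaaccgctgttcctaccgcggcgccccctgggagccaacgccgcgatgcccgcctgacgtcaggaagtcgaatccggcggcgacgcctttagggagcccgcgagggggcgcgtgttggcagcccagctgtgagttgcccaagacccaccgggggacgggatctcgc

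Counted with the start site as base 1 and the base before it as -1, SCD holds CCAAT boxes beginning at -229 and -186 and GC boxes at -33 and -11. FADS2 holds a CCAAT box at 6 and a GC box at -154, and its first window holds neither. FADS1 holds GC boxes at -248 and -205 and no CCAAT box. CCAAT boxes also lie in windows of ACLY, FADS3, ELOVL1 and ELOVL5, which did not rise at either dose, and of ACACA, which did. The FADS1 start of this window lies downstream of this FADS2 start, on the opposite strand. The stretch from one to the other spans 600 bases with both included. Both are RefSeq window starts, at 61816404 for FADS2 and 61817003 for FADS1. GENCODE v29 instead begins FADS2 at 61792980 and the minus-strand FADS1 at 61829318. Sequence at other start sites was not searched, so the 600 bases hold for these 2 starts only. Among all 35116 RefSeq windows of this length, 34.6% hold CCAAT and 45.0% hold GGGCGG on either strand. For the sterol regulatory element only the spelling TCACNCCAC was searched, which 1.13% of all windows hold and none of the 13 windows does. Other spellings of that element were not searched, so its absence from these windows is not shown. The E-box CACGTG, found in 7.26%, is only in the window of ELOVL5, which did not pass the test. Both strands were searched, a CCAAT box and a GC box can share letters but do not in the 3 windows printed, and a match is a description of letters, not of a bound site.

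FADS3, a relative reported to act on sphingoid bases, was the gene for which the 2 doses differed. It read 12.1, 14.0 and 14.1 CPM in the controls, 11.03, 9.42 and 11.9 CPM at 50 µM, and 16.8, 17.2 and 14.0 CPM at 100 µM. The 50 µM libraries were below all others, and 100 µM replicate 3 was inside the control range. Against the controls the log2 fold change was -0.31 ± 0.131 at 50 µM (95% interval -0.61 to -0.02) and 0.26 ± 0.13 at 100 µM (-0.03 to 0.55). With all libraries neither passed (edgeR adjusted p 0.136 and 0.181), and without 100 µM replicate 3 both did, at -0.31 (0.0451) and 0.35 (0.0480). The direct comparison of 100 µM with 50 µM gave 0.57 ± 0.131 (1.48-fold, 95% interval 0.28 to 0.86) with an edgeR adjusted p of 0.0442. In that comparison 4.15% of all genes changed (2.25% rose and 1.89% fell). FADS3 was the only 1 of the 10 that rose and none fell. At an unadjusted edgeR p under 0.05, 1 was higher and 1 lower, with the share of all genes not counted. DESeq2 called 0 lower (5.18% of all genes) and limma on log2(TPM + 1) called 0 in either direction (3.21% of all genes). The edgeR call of FADS3 did not survive the omission of control replicate 2 (0.0762) or 3 (0.0742), a single 50 µM library (0.113 to 0.163), or 100 µM replicate 1 (0.119) or 2 (0.125). Without 100 µM replicate 3 it was 0.66 with an adjusted p of 0.00346. FADS3 lies at chr11:61873519-61892051 on the minus strand, 6164 bases from the end of FADS2.

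**Figure D3:**
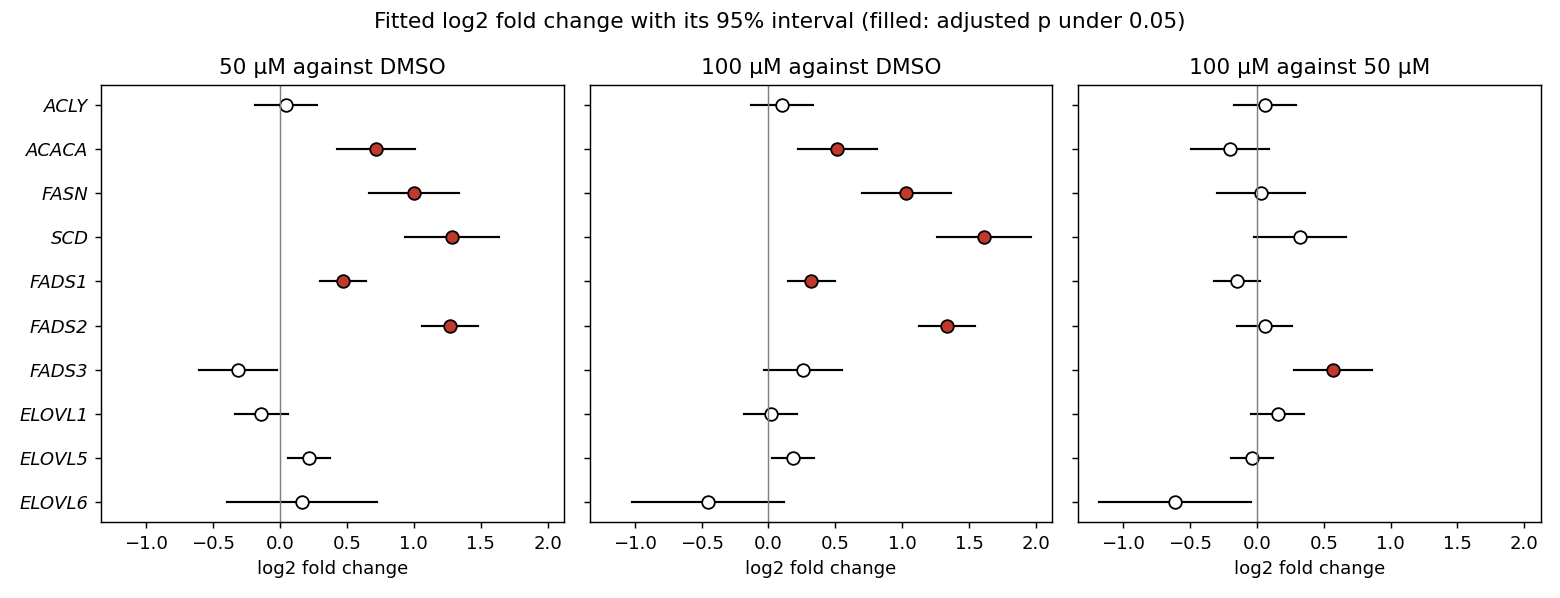
Fitted log2 fold change (x axis) with its 95% interval for each of the 10 genes in the 3 comparisons; filled points have an adjusted p under 0.05. The same 5 genes are filled at 50 µM and 100 µM against DMSO, and only FADS3, at 0.57, is filled between the doses.

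None of the 3 elongases passed the test in any comparison. ELOVL5, which lengthens polyunsaturated fatty acids, read 320, 331 and 319 CPM in the controls, 380, 375 and 371 CPM at 50 µM, and 388, 361 and 350 CPM at 100 µM. Each treated library was above each control by a narrow margin. ELOVL5 had a log2 fold change of 0.22 ± 0.0703 at 50 µM (edgeR adjusted p = 0.0711) and 0.18 ± 0.0703 at 100 µM (0.0941). Without 100 µM replicate 3 both passed, at 0.0153 and 0.0270, and by DESeq2 they passed at 0.00645 and 0.0170. In the authors' deposited table the q-value of ELOVL5 was 0.0054 at 50 µM and 0.237 at 100 µM. ELOVL5 lies at chr6:53267398-53349179 on the minus strand.

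ELOVL1, which lengthens saturated very long chains, read 78.65, 89.0 and 94.5 CPM in the controls, 79.1, 80.6 and 78.3 CPM at 50 µM, and 89.2, 94.8 and 81.0 CPM at 100 µM. The groups overlapped. Its log2 fold change was -0.14 at 50 µM (95% interval -0.34 to 0.06) and 0.02 at 100 µM (-0.19 to 0.22). The edgeR adjusted p was 0.307 and 0.916. ELOVL1 lies at chr1:43363397-43368074 on the minus strand.

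ELOVL6, which lengthens palmitate to stearate, the substrate of SCD, split the 100 µM group. It read 49.4, 47.5 and 46.0 CPM in the controls, 50.1, 57.8 and 52.1 CPM at 50 µM, and 26.3, 24.5 and 53.9 CPM at 100 µM. Replicates 1 and 2 of the 100 µM group were below every other library, and replicate 3 was above every control. With all libraries the log2 fold change at 100 µM was -0.45 ± 0.253 (95% interval -1.02 to 0.12; edgeR adjusted p = 0.227), and that at 50 µM was 0.16 ± 0.251 (0.678). Without 100 µM replicate 3 the 100 µM value was -0.91 with an edgeR adjusted p of 4.35e-05, and the difference from 50 µM, -0.61 with all libraries (0.195), was -1.07 (4.93e-05). That library differs from its partners in many genes (chi-square per gene 83.9 and 86.1), and its part in the result beyond this omission was not tested. The ratio of ELOVL6 to ELOVL5 on the TPM scale was 0.0637, 0.0593 and 0.0592 in the controls, 0.0545, 0.0638 and 0.0582 at 50 µM, and 0.0280, 0.0280 and 0.0632 at 100 µM. The groups overlapped, and the difference in mean log2 ratio was -0.72 between 100 µM and the controls (exact permutation p = 0.3) and -1.12 without 100 µM replicate 3. ELOVL6 lies at chr4:110045846-110199199 on the minus strand.

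**Figure D4:**
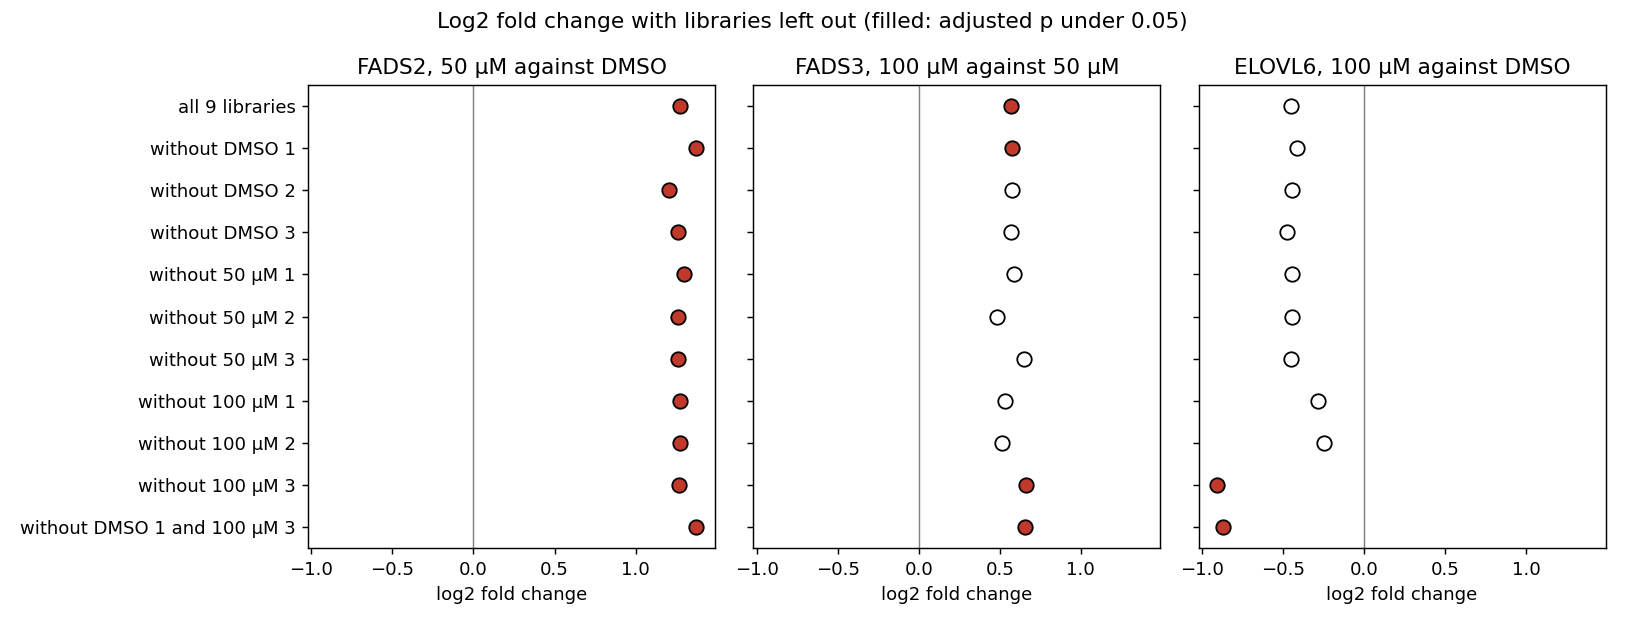
Log2 fold change (x axis) of 3 genes with all libraries and with libraries left out (y axis); filled points have an adjusted p under 0.05. FADS2 stays filled throughout, FADS3 is filled in a few settings, and ELOVL6 is filled, at -0.91 and -0.87, only where 100 µM replicate 3 is left out.

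By separation of the libraries alone, 7 of the 10 genes had every 50 µM library above every control (24.4% of all genes tested) and 1, FADS3, had every one below (24.6%). The 7 were the 5 that rose with ELOVL5 and ELOVL6. At 100 µM 6 were above (17.3% of all genes), the 5 that rose with ELOVL5, and 0 were below (18.6%). Between the doses SCD, FADS2, FADS3 and ELOVL1 were higher at 100 µM without overlap (13.3% of all genes), and FADS1 was lower (14.4%).

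The pattern over the 9 libraries was compared between genes by the root mean square difference of log2 CPM, each gene centred on its own mean, over 10469 genes with a mean of at least 5 CPM. For FADS1 the nearest was HSD17B12, at 0.0471, followed by ADAM9 and MLEC at 0.0698 and 0.0716. For ACACA they were DIRAS1 (0.0745), NUDT3 (0.104) and PNPLA3 (0.107), and for FASN they were SNED1 (0.110), DNAH1 (0.131) and FAM171A2 (0.133). SCD was nearest to TMEM154 (0.156), CDH6 (0.167) and FILIP1L (0.173), and FADS2 to DAPK1 (0.139), AMIGO2 (0.149) and DAPK2 (0.154). FADS3 was nearest to RHBDF1 (0.0894), SLC10A3 (0.0896) and RNF24 (0.0914). Within the set the closest pair was ACLY with ELOVL1 (0.0848), and among the 5 that rose the closest were ACACA with FADS1 (0.162) and SCD with FADS2 (0.182). The measure depends on the size of change, so genes that changed little are near each other whatever their pattern. From their own means ACLY and ELOVL1 lay at 0.113 and 0.108, against 0.205 for FADS1 and 0.725 for SCD. These are descriptions with no test.

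The enzymes and regulators around the 10 genes were counted by list, to be read against the 5.28% that rose and 6.31% that fell at 50 µM, and the 10.7% and 10.3% at 100 µM, over all genes. Of 6 genes that supply acetyl-CoA and NADPH, 1 rose at 50 µM, and 2 rose and 1 fell at 100 µM. SLC25A1, the mitochondrial citrate carrier, read 86.1, 93.0 and 89.7 CPM in the controls, 117, 129 and 135 CPM at 50 µM, and 121, 136 and 141 CPM at 100 µM. Its log2 fold change was 0.50 at 50 µM and 0.57 at 100 µM (edgeR adjusted p 0.0118 and 0.00275). ACSS2, which makes acetyl-CoA from acetate, rose by 1.01 at 100 µM (edgeR adjusted p = 0.0140). Its libraries there read 79.3, 91.6 and 161 CPM, and without replicate 3 the value was 0.63. ME1, the cytosolic malic enzyme that yields NADPH, fell by 0.34 at 100 µM (edgeR adjusted p = 0.0147) and was 0.38 lower than at 50 µM on the log2 scale (edgeR log2 difference -0.38, adjusted p = 0.0296). Without control replicate 2 or 3 the 100 µM call of ACSS2 was lost, and without control replicate 3 that of ME1, at edgeR adjusted p up to 0.0573 and 0.0511.

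Of the 9 partner enzymes of elongation and desaturation tested, 2 rose at 50 µM, and 1 rose and 2 fell at 100 µM. HSD17B12, the ketoacyl-CoA reductase of the elongation cycle, rose by 0.43 at 50 µM and 0.32 at 100 µM (edgeR adjusted p 0.00946 and 0.0106). HACD3, a dehydratase of that cycle, rose by 0.28 at 50 µM (edgeR adjusted p = 0.0355). CYB5A and CYB5B, cytochromes that carry electrons, had log2 fold changes of -0.42 and -0.47 at 100 µM (edgeR adjusted p 0.0144 and 0.0111), and CYB5B was also lower than at 50 µM (-0.57, adjusted p = 0.0186). Without control replicate 3 HSD17B12 lost both calls (edgeR adjusted p up to 0.0561 at 50 µM and 0.0517 at 100 µM over its omissions), CYB5B lost its 100 µM call without control replicate 2 or 3 (up to 0.0570), and CYB5A lost its call without control replicate 2 (0.0517). The 50 µM call of HSD17B12 was also lost without 50 µM replicate 1 or 3, and the dose difference of CYB5B when a single 50 µM library was omitted (up to 0.111). Of the other carboxylase, desaturase and elongase genes, 5 were tested and 1 fell at 50 µM: ACACB, the carboxylase of the mitochondrial surface, had a log2 fold change of -0.74 (edgeR adjusted p = 0.0250). It read 15.2, 18.5 and 21.2 CPM in the controls and 11.8, 10.2 and 10.9 CPM at 50 µM, the opposite direction to ACACA.

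Of 7 acyl-CoA synthetases tested, which activate fatty acids, 1 rose and 1 fell at 50 µM and 2 rose at 100 µM. ACSL4 rose by 0.38 and 0.47 (edgeR adjusted p 0.0342 and 0.00881), ACSL1 by 0.39 at 100 µM (0.0355), and ACSL5 fell by 0.47 at 50 µM (0.0201). Of 7 genes of mitochondrial fatty acid synthesis 1 rose at each dose. These were CBR4, a ketoacyl reductase subunit, by 0.65 at 50 µM (edgeR adjusted p = 0.0321), and ACSF3, a malonyl-CoA synthetase, by 0.45 at 100 µM (0.0424), which was 0.28 without 100 µM replicate 3. At 50 µM the calls of ACACB, ACSL4, ACSL5, HACD3 and CBR4 were each lost when control replicate 2 or 3, or a single 50 µM library, was omitted, with edgeR adjusted p up to 0.113, 0.148, 0.0997, 0.133 and 0.137. At 100 µM the call of ACSL1 held only without 100 µM replicate 3 and that of ACSF3 only without 100 µM replicate 1 or 3, with adjusted p up to 0.0906 and 0.129 in the other omissions.

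Of 12 regulators tested, 2 rose at 50 µM, and 6 rose and 1 fell at 100 µM. SREBF1, which encodes the sterol-regulated factor best known for activating fatty acid synthesis, read 72.3, 42.5 and 38.3 CPM in the controls, 108, 125 and 123 CPM at 50 µM, and 116, 125 and 106 CPM at 100 µM. Control replicate 1, the library also highest for SCD and FADS2 among the controls, was above the other 2 but below each treated library. The log2 fold change was 1.22 at 50 µM and 1.18 at 100 µM (edgeR adjusted p 0.0118 and 0.00505). SREBF2, its relative of the cholesterol pathway, rose by 0.42 and 0.53 (0.0180 and 0.00336). INSIG2, which retains these factors in the endoplasmic reticulum, rose by 1.32 at 100 µM (0.00288) and by 0.92 over 50 µM (0.0390). Its 100 µM libraries read 74.3, 75.4 and 134 CPM, and without replicate 3 the differences were 0.99 and 0.59. Of 7 genes for the AMPK subunits and malonyl-CoA decarboxylase, 2 fell at each dose; AMPK is the kinase that inhibits acetyl-CoA carboxylase. PRKAG2 fell by 0.50 and 0.56 (edgeR adjusted p 0.0180 and 0.00529), PRKAA2 by 0.41 at 50 µM (0.0271) and PRKAB1 by 0.25 at 100 µM (0.0424). The 100 µM calls of SREBF1, SREBF2, INSIG2, PRKAG2, SLC25A1 and ACSL4 held in each of the 9 omissions. At 50 µM SREBF1 and SLC25A1 lost theirs without control replicate 2 or 3 or 50 µM replicate 2 or 3 (edgeR adjusted p up to 0.0676 and 0.0734), and SREBF2, PRKAG2 and PRKAA2 without these or 50 µM replicate 1 (up to 0.0911, 0.0972 and 0.119). INSIG2 lost its dose difference under those same 5 omissions (up to 0.156), ME1 its own under these and without 100 µM replicate 1 or 2 (up to 0.137), and PRKAB1 its call in all omissions but that of 100 µM replicate 3 (up to 0.152).

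**Figure D5:**
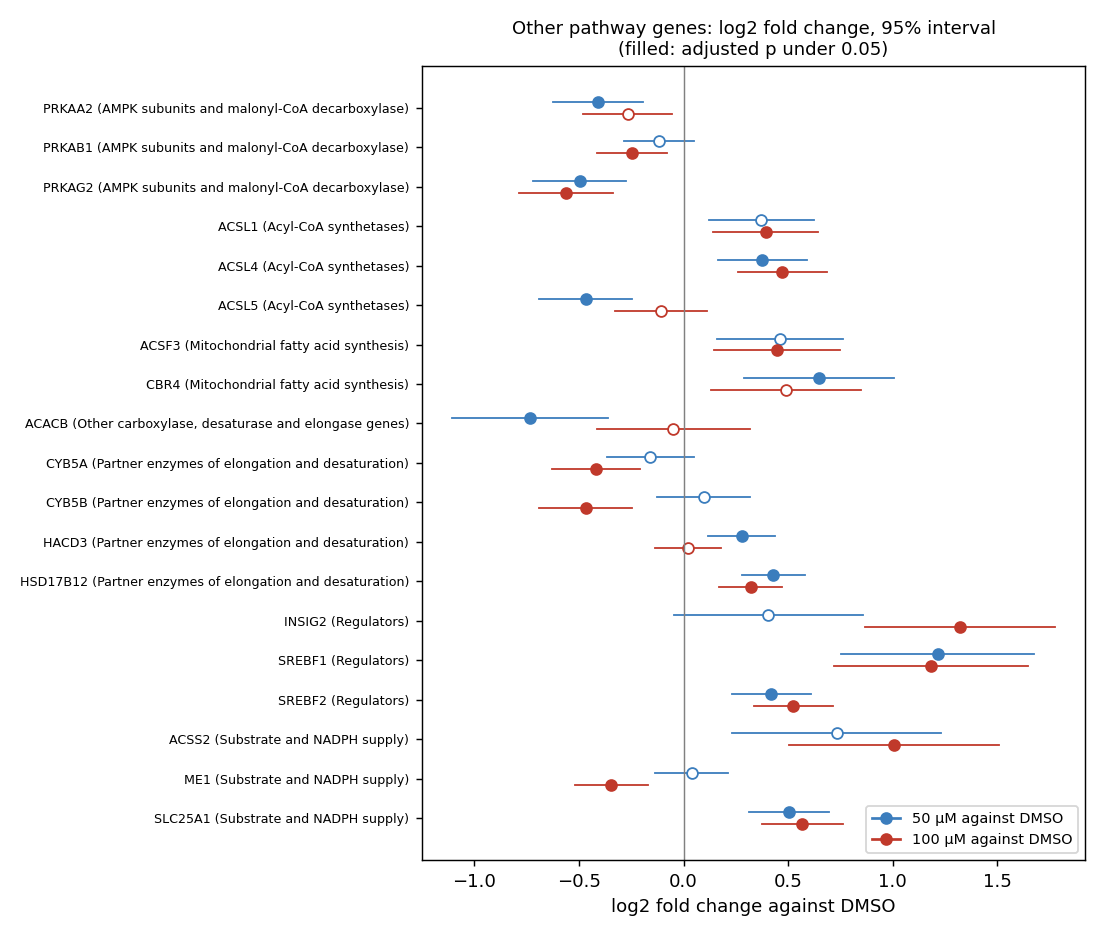
Log2 fold change against DMSO (x axis) with its 95% interval for the named genes around the 10 enzymes, at 50 µM and 100 µM; filled points have an adjusted p under 0.05. SREBF1 lies at 1.22 and 1.18, and PRKAG2 at -0.50 and -0.56.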

How the data were processed

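The members and gene lists were chosen with earlier results of these data known. Poly(A) RNA was selected with oligo(dT) beads and the libraries were treated with DSN, a nuclease used to normalise abundant sequences, per the labels' protocols. Those protocols describe tissue extraction, although the samples are labelled as a cell line. HISAT2 2.0.4, Bowtie2 2.2.5, RSEM 1.2.12 and GRCh38.p13 are named in the submitters' processing notes. The deposited table holds expected counts (26.84% whole within 1e-06), TPM and FPKM values per library, and the authors' own log2 fold changes and q-values by DESeq2, per the file headers. FPKM served only as an alternative for the ratios, and 9 per-library columns of normalised counts were not used. No label or header says whether counting used strand.

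Expected counts were rounded and fitted in 1 edgeR 4.0.16 quasi-likelihood model of all 9 libraries (R 4.3.3, limma 3.58.1), with TMM scaling and Benjamini-Hochberg adjustment. CPM are TMM-scaled. filterByExpr (minimum count 10, total 15, share 0.7) left 12832 genes and removed 4660, which held 0.042% of counts. The biological coefficient of variation was 14.4%. Ratios of TPM were compared by exact permutation tests. The fit was also run on simulated counts in which no library stood apart from its group, unlike these data, and the outcome is not reported here. Alternatives were DESeq2 1.42.0, other scaling, no filter, limma on log2(TPM + 1), only the groups compared, a replicate block and omitted libraries. Same-numbered libraries deviated with correlations of -0.46 to 0.28, so the numbers were not taken as pairs. All 10 members are named; from each other list, at most the 3 genes with the smallest adjusted p among those past 0.05, the mean CPM being 5 or more; and for each member that passed, the 3 genes nearest in pattern. ACSL6, ELOVL2, ELOVL4, FADS6, HACD4 and THRSP did not pass the filter. Gene positions are from GENCODE v29, since the deposited table's strand differs from it for 5 of the 10 genes. Some marker genes are not reported here.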

Additional observations from a re-analysis of the deposited data

Results flagged for a closer look

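For FADS3 the effects of the 2 doses differed from each other: the 100 µM libraries exceeded the 50 µM libraries by a log2 difference of 0.57 (edgeR's quasi-likelihood test, Benjamini-Hochberg adjusted p = 0.0442). The 3 libraries of each group did not overlap, and 13.3% of all genes were likewise higher at 100 µM without overlap. Of 16 alternatives, 5 passed the threshold for this difference. Against the controls neither dose passed with all libraries (adjusted p 0.136 at 50 µM and 0.181 at 100 µM). Without 100 µM replicate 3 both passed in edgeR, lower at 50 µM (-0.31, 0.0451) and higher at 100 µM (0.35, 0.0480). The authors' deposited table, from the same libraries, gives a log2 fold change of 0.57 with a q-value of 0.0184 for the same comparison.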

How the results depend on the processing

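The count of genes that rose at 50 µM was 5, and 2 to 6 with 1 library left out, where 0.358% to 17.8% of all genes rose. The count that rose at 100 µM was also 5, 3 with only the 2 groups compared in the fit (4.42% of all genes), and 3 to 7 with 1 library left out (4.57% to 15.0%). Between the doses 1 rose (FADS3), 0 without a filter on low counts, with only the 2 groups compared, or by limma on log2(TPM + 1) (1.22%, 1.40% and 1.71% of all genes), and 0 to 1 with 1 library left out (0.242% to 14.4%). The counts that fell were 0 in all 3 comparisons. With 1 library left out they were 0 to 1 at 50 µM (FADS3), 0 to 1 at 100 µM (ELOVL6) and 0 to 3 between the doses (ACACA, FADS1 and ELOVL6), each above 0 only without 100 µM replicate 3, where 19.4%, 15.3% and 13.3% of all genes fell. Without control replicate 1 and 100 µM replicate 3 together, 7 rose at each dose, 2 fell at 50 µM, 1 fell at 100 µM, and 4 rose and 3 fell between the doses. In that setting 29.4% of all genes rose and 28.1% fell at 50 µM, 24.4% and 24.3% at 100 µM, and 23.8% each way between the doses. The cause of these moves was not tested.

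With the replicate number as a block, 5 rose at 50 µM, 4 at 100 µM (ACACA lost its call, edgeR adjusted p = 0.0517) and 0 between the doses (FADS3, 0.121), where 1.55%, 6.96% and 0.631% of all genes rose. No label says whether same-numbered libraries belong together, and the correlations given with the processing cannot decide it.

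Over 480 values of the 10 genes under the alternatives, 416 kept their direction and side of the threshold, 30 lost the call, 24 gained one and 10 reversed. None of the 10 had a call, and all were within 0.0429 of 0 with all libraries. ACLY at 50 µM was -0.0087 by limma, -0.0326 (control replicate 1) to 0.0884 with 1 library left out and -0.0271 without both libraries. ELOVL1 at 100 µM was -0.0317 by limma, and -0.0461 (control replicate 1) to 0.0771 with 1 library left out, with -0.0379 without 100 µM replicate 2. FASN between the doses was -0.0608 without 50 µM replicate 1, -0.1555 (100 µM replicate 3) to 0.1338 with 1 library left out and -0.1594 without both libraries. ELOVL5 between the doses was -0.0778 to 0.0007 (100 µM replicate 3) with 1 library left out. The log2 ratio of ELOVL6 to ELOVL5 at 50 µM, -0.05 with all libraries, was -0.1094 to 0.0044 (50 µM replicate 1) with 1 library left out. With 3 libraries a group the exact tests of ratios cannot go below p = 0.1.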

Other observations

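By the gene set annotation in the authors' deposited table, 7 of the 10 genes (ACLY, ACACA, SCD, FADS1, FADS2, ELOVL5 and ELOVL6) are listed in the Hallmark set for mTORC1 signalling, which holds 200 genes or 1.14% of that table. FASN, SCD and FADS2 are listed in the set for cholesterol homeostasis, which holds 74 genes or 0.423%. SCD, FADS1 and ELOVL5 are listed in that for androgen response (98 genes or 0.56%). The set for fatty acid metabolism (154 genes or 0.88%) lists FASN and ELOVL5. Other sets also list some of the 10, so no set is singled out here. FADS3 and ELOVL1 are listed in none of the Hallmark sets there. This is annotation, not a measurement of these cells.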
